A study of Ambystoma mexicanum with 49 samples.

Results

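The comparison of stage 2 with stage 1 in poly(A) RNA of axolotl (Ambystoma mexicanum, a salamander) embryos rests on 5 of the 49 poly(A) libraries of the series, 2 of stage 1 and 3 of stage 2, chosen by their stage and library kind. Each library came from 1 single dejellied embryo collected at 20 °C, with no genotype, strain or treatment in the labels. The labels tell the groups apart by stage alone, and no clutch, date or library batch was found in them. Beside them stood 5 libraries of total RNA depleted of ribosomal RNA, 2 of stage 1 and 3 of stage 2. A gene's change in poly(A) RNA was set beside its change in total RNA, so that gain or loss of poly(A)-selected signal could be read against change in total RNA. The sources used here do not say which embryos gave the total RNA libraries. The stage 1 and stage 2 libraries held 14.5 to 23.3 M estimated counts in poly(A) RNA and 17.4 to 25.5 M in total RNA.

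In the staging series used for salamanders stage 1 is the egg before its first cleavage and stage 2 the embryo just after it. In vertebrate eggs and early cleavage embryos the genome is mostly silent, and the mRNA in use was laid down while the oocyte grew. Which of these maternal mRNAs are translated depends in large part on their poly(A) tails: cytoplasmic polyadenylation, studied most in Xenopus oocytes, lengthens the tails of stored mRNAs that carry a cytoplasmic polyadenylation element (CPE) bound by CPEB, and deadenylases shorten others. A library made by selection on oligo(dT) takes up mRNA according to its tail, whereas a library depleted of ribosomal RNA does not select on the tail. Tail length itself was not measured, and a value is a gene's share of its own library, not an amount per embryo.

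Changed genes were called at an adjusted p under 0.05 by edgeR's quasi-likelihood test, fitted on all 17 stages for poly(A) RNA and on the 5 libraries for total RNA. Log2 changes are stage 2 over stage 1 and are given ± SE, with levels in TPM, transcript abundance scaled for library size and gene length. Markers of the egg were present in both stages: BTG4, which recruits the deadenylase that clears maternal mRNA in the mouse, stood at 2442 and 2130 TPM in the stage 1 libraries and at 1726, 1542 and 1058 TPM in those of stage 2. Zygote arrest like gene ZAR1L stood at 569 and 507 TPM and then at 472, 495 and 331 TPM. Not all egg markers were abundant or lower at stage 2. ZAR1 stood at 1.56 and 2.95 TPM and then at 2.09 to 4.24 TPM, and ZP2 at 5.73 and 5.16 TPM and then at 2.95 to 4.65 TPM. The stage 2 libraries differed among themselves. Replicate 3 had the highest level of the 3 in 96.0% of the genes called higher, and replicate 2 the lowest in 72.8% of them, against 46.3% and 34.9% of all genes tested.

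Between the 2 stages 3115 genes rose in poly(A) RNA, 21.6% of the 14437 tested, and 1609 fell, 11.1%. In total RNA 165 genes rose, 1.44% of the 11419 tested, and 62 fell, 0.543%. At an unadjusted p under 0.05 the numbers were 6062 genes in poly(A) RNA and 2175 in total RNA. Without replicate 3 of stage 2, 2032 genes rose and 603 fell in poly(A) RNA, and with the first replicate of stage 1 left out 687 fell. A fit of the 5 libraries alone called 749 and 360, of which 746 and 345 were among the calls above. The split of calls moved with the scaling, to 2686 higher and 2326 lower with DESeq2 size factors and to 2575 and 1954 with library size alone. In total RNA library size alone gave 426 higher and 56 lower.

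The genes that rose had a median log2 change of 1.24 in poly(A) RNA and of 0.03 in total RNA. Of the 3061 of them tested in both tables, 2857 or 93.3% had a total RNA change under 0.5 in size, as did 88.9% of all 11353 genes tested in both. The genes that fell had medians of -0.64 and -0.02, and 89.8% were under 0.5 in total RNA, so that the shares of both groups were near that of all genes. By calls, the risers divided into 42 that also rose in total RNA, 3015 with no call there and 4 that fell in it. The fallers divided into 46 that also fell, 1380 with no call and 35 that rose in total RNA. A missing call in total RNA does not show that the amount stayed the same. Over all genes tested in both tables the log2 changes had a Pearson correlation of 0.26, across genes, which are not independent replicates.

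**Figure D1:**
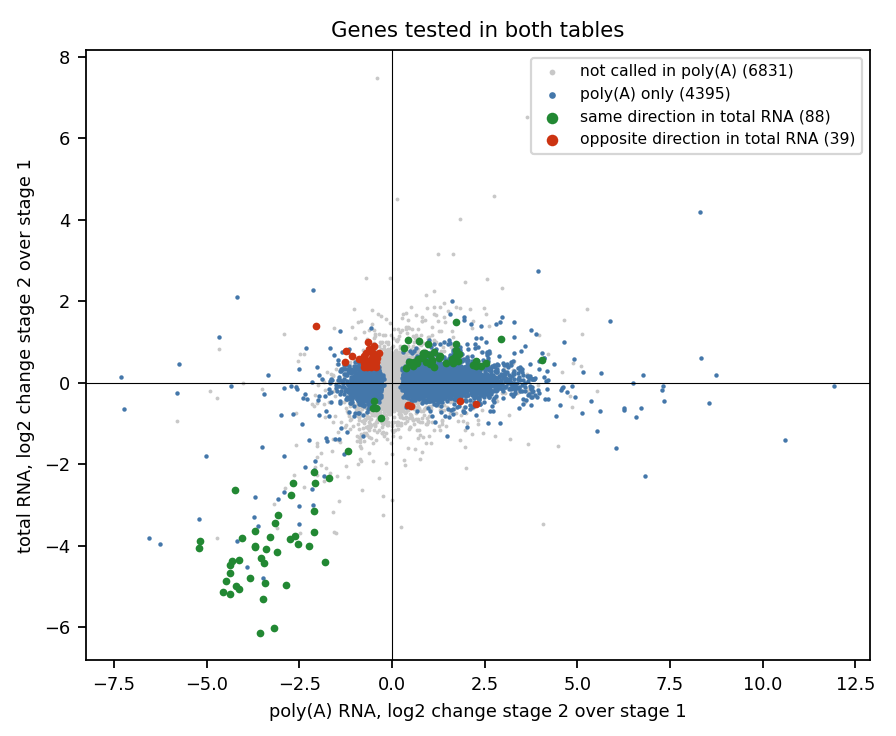
Log2 change of stage 2 over stage 1 in poly(A) RNA (x axis) and in total RNA (y axis), 1 point for each gene tested in both tables, coloured by its calls. The 4395 genes called in poly(A) RNA alone spread along the x axis, and the 46 genes that fell in both tables are mostly in the lower left corner.

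Whether a gene's poly(A) change differed from its total RNA change was tested directly, by the interaction of stage and library kind over the 10 libraries. With its sign, the poly(A) log2 change was above the total RNA change in 714 of 10988 genes, 6.5%, and below it in 476, 4.33%. Of the poly(A) risers 703 of the 3016 tested passed in the higher direction and 0 in the lower, and of the fallers 348 of 1448 passed in the lower direction and 0 in the higher. The test shares the poly(A) libraries that made the calls, so these directions were largely fixed by the choice of genes. The smallest adjusted p was 0.0263, shared by many genes, and 3578 genes had an unadjusted p under 0.05. These calls rest on every one of the total RNA libraries. Left out in turn, replicate 1 or 2 of total RNA stage 1, replicate 1 or 3 of total RNA stage 2, or replicate 1 of poly(A) stage 1 each took the count to 0 and 0, and without replicate 2 of total RNA stage 2 it was 9 and 20. Library size alone gave 432 and 866, and limma-voom 431 and 592.

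The genes that rose started from low poly(A) signal for their amount. The median ratio of poly(A) TPM to total RNA TPM, taken between tables that were scaled apart, went from 0.346 at stage 1 to 0.837 at stage 2 in the risers. In the fallers it went from 2.44 to 1.55. Over all genes tested in both tables it was 1.28 and then 1.33. These poly(A) values are those that made the calls. In the risers tested in both tables the median level was 6.23 and 6.65 TPM in the stage 1 libraries and 13.0, 11.3 and 25.3 TPM in those of stage 2. Their total RNA medians lay at 19.5 and 19.4 TPM and then at 22.4, 19.7 and 20.9 TPM.

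Of the 155 genes named by the rules below that were called in poly(A) RNA, 71 kept that call under every alternative tried. Lost poly(A) calls are noted with the genes described. Calls of the difference are not so noted, and none of them was left without replicate 1 or without replicate 3 of total RNA stage 2. ISY1, a splicing factor, had 0 counts in both stage 1 poly(A) libraries and stood at 15.8, 4.20 and 37.9 TPM at stage 2. In total RNA it stood at 42.7 and 44.7 TPM at stage 1 and at 51.7, 36.6 and 38.3 TPM at stage 2. Its poly(A) level was thus at least 259-fold higher at stage 2, against a floor of 3 counts over the stage 1 group, and its total RNA levels overlapped between stages (log2 change -0.09 ± 0.13, edgeR adjusted p = 0.77).

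KRI1, named for a yeast nucleolar protein of ribosome assembly, stood at 1.78 and 3.24 TPM at stage 1 and at 21.6, 16.8 and 69.2 TPM at stage 2. Every stage 2 library was above both stage 1 libraries, a condition by which the gene was named. Poly(A) levels did not overlap between stages in 6773 of the 11353 genes tested for both kinds of library. The log2 change of KRI1 was 3.80 ± 0.37 (edgeR adjusted p = 1.7e-09), a 14.0-fold rise. Its total RNA was high throughout, at 83.6 and 90.3 TPM and then at 85.6, 69.5 and 76.3 TPM. RELB, a subunit of the transcription factor NF-kB, did the same, from 1.62 and 2.66 TPM to 22.6, 16.3 and 54.1 TPM in poly(A) RNA (log2 change 3.82 ± 0.43, edgeR adjusted p = 1.8e-08). In total RNA it lay between 42.3 and 52.4 TPM in all 5 libraries. For both genes the poly(A) change exceeded the total RNA change (3.93 ± 0.71 and 3.65 ± 0.59 on the log2 scale, edgeR adjusted p = 0.026 for each).

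POLDIP3, a partner of DNA polymerase delta that also acts in mRNA export, rose by 3.97 ± 0.62, from 1.46 and 1.04 TPM to 6.28, 9.30 and 47.9 TPM. Its total RNA lay between 27.3 and 36.4 TPM in all 5 libraries. The other large increases were C19orf25, REPIN1, SNORD3A, ZNF620, ZNF389 and ZNF34. C19orf25 was at 0 counts in both stage 1 poly(A) libraries and at 32.0, 14.6 and 48.0 TPM at stage 2, at least 103-fold higher. This poly(A) call was lost without either stage 1 library. In total RNA C19orf25 had few counts (mean 17.2), at 10.4 and 0 TPM and then at 0, 6.11 and 0 TPM. Its changes did not pass the test of their difference (edgeR adjusted p = 0.061). REPIN1, a zinc finger protein, was likewise at 0 in stage 1 poly(A) RNA and then at 6.32, 2.67 and 25.4 TPM, by the same floor at least 4.34-fold higher. It was not tested in total RNA. Its poly(A) call was lost with any of 3 libraries left out, either one of stage 1 or replicate 3 of stage 2. SNORD3A, the U3 small nucleolar RNA, which is not a polyadenylated mRNA in its mature form, went from 0 and 0.800 TPM to 11.1, 2.39 and 28.7 TPM, with 83.2 to 204 TPM in total RNA. Its call was lost in the fit of only the 2 stages.

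Genes in which the rise in poly(A) RNA departed from total RNA with the smallest p were MSL2, NOP56, STX3, IL17RC and ZNF71. MSL2, a ubiquitin ligase of a histone acetyltransferase complex, stood at 21.8 and 19.0 TPM at stage 1 and at 96.5, 76.8 and 147 TPM at stage 2. Its log2 change in poly(A) RNA was 2.37 ± 0.26 (edgeR adjusted p = 9.5e-09). Its total RNA levels were 136 and 134 TPM and then 160, 133 and 129 TPM, a log2 change of 0.02 ± 0.09. STX3, a syntaxin of vesicle fusion, went from 13.0 and 17.5 TPM to 57.8, 48.5 and 85.0 TPM in poly(A) RNA, with 24.3 to 26.2 TPM in total RNA. NOP56, a core protein of box C/D small nucleolar RNPs, went from 6.64 and 5.74 TPM to 21.3, 19.0 and 29.8 TPM, with 17.5 to 23.9 TPM in total RNA. IL17RC, an interleukin receptor chain, rose by 3.53 ± 0.44, from 3.63 and 6.43 TPM to 40.1, 38.9 and 97.5 TPM. The poly(A) change minus the total RNA change ranged from 1.94 ± 0.27 in STX3 to 3.26 ± 0.49 in IL17RC.

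**Figure D2:**
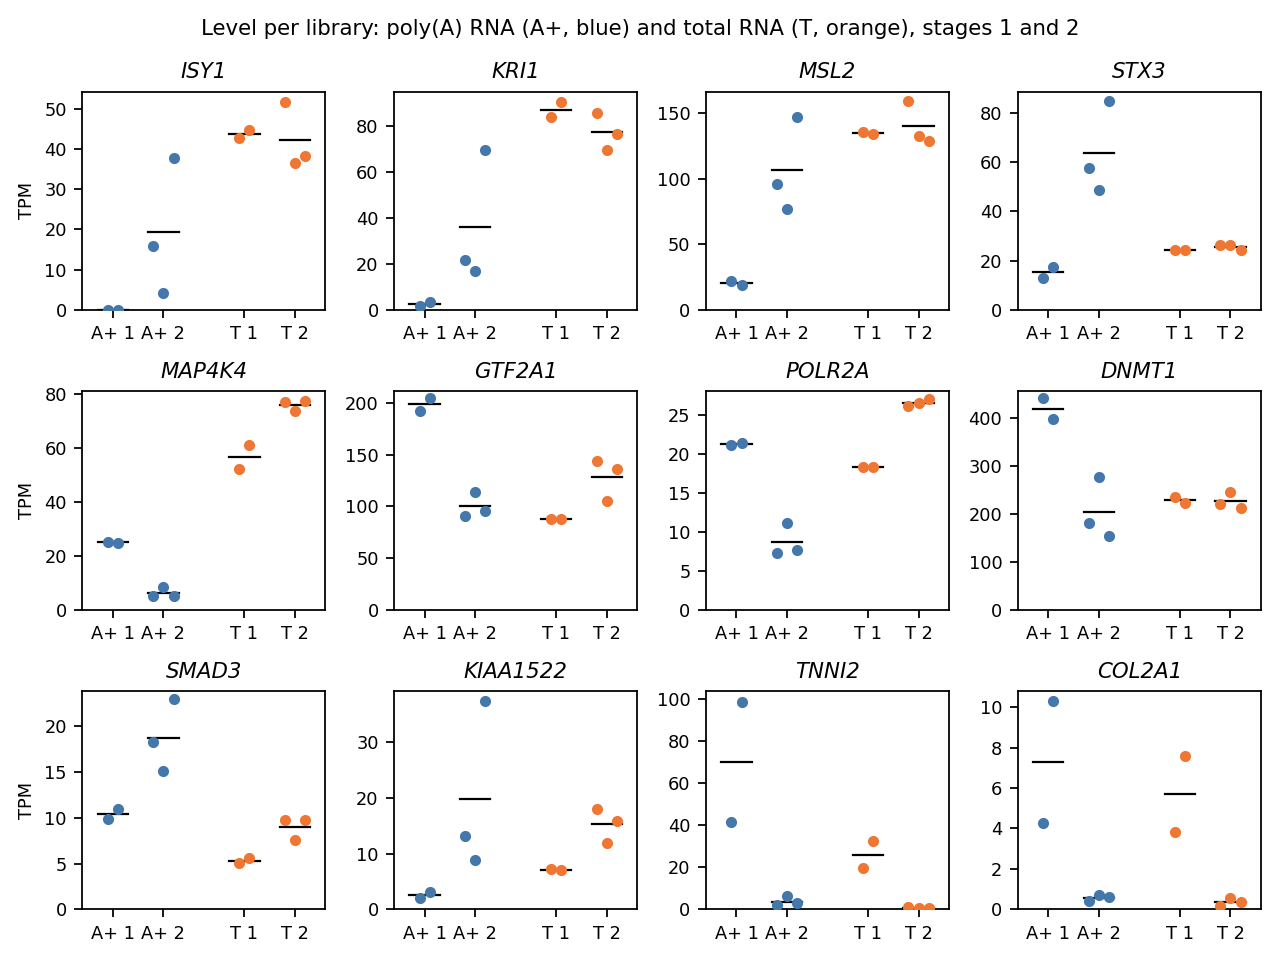
Level in TPM (y axis, from 0, own scale for each gene) in each poly(A) library (blue, A+) and total RNA library (orange, T) of stages 1 and 2, with the mean of each group as a line. ISY1, KRI1, MSL2 and STX3 rose in poly(A) RNA alone, MAP4K4, GTF2A1 and DNMT1 fell in it alone, POLR2A fell in poly(A) RNA and rose in total RNA, and the last 4 genes moved the same way in both.

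Genes in which the fall in poly(A) RNA departed from total RNA with the smallest p included MAP4K4, MFAP3L, INPP5B and GTF2A1. MAP4K4, a kinase upstream of the JNK pathway, stood at 25.1 and 24.8 TPM at stage 1 and at 4.91, 8.40 and 4.84 TPM at stage 2 in poly(A) RNA. Its log2 change in poly(A) RNA was -2.03 ± 0.52 (edgeR adjusted p = 0.0026), a 4.08-fold fall. Its total RNA levels were 52.0 and 61.0 TPM and then 76.7, 73.6 and 77.2 TPM, all higher at stage 2 without passing the test (0.39 ± 0.09, edgeR adjusted p = 0.069). GTF2A1, a subunit of the general transcription factor TFIIA, went from 193 and 206 TPM to 90.6, 114 and 95.8 TPM in poly(A) RNA. Its total RNA stood at 87.6 and 87.9 TPM and then at 144, 105 and 136 TPM. MFAP3L and the inositol phosphatase INPP5B fell by 1.38 ± 0.24 and by 1.45 ± 0.31 on the log2 scale. In these 4 genes the difference between the changes lay between -1.57 ± 0.22 and -2.49 ± 0.33 (edgeR adjusted p = 0.026 for each).

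In a few genes poly(A) RNA and total RNA moved in opposite directions. POLR2A, the largest subunit of RNA polymerase II, fell from 21.1 and 21.4 TPM to 7.31, 11.1 and 7.69 TPM in poly(A) RNA (log2 change -1.28 ± 0.37, edgeR adjusted p = 0.0065). Its total RNA rose from 18.3 TPM in both stage 1 libraries to 26.2, 26.5 and 27.0 TPM (0.50 ± 0.09, edgeR adjusted p = 0.034). Neither kind of library overlapped between stages, as poly(A) RNA did not in 6773 of the 11353 genes tested in both tables. TOPORS, a ubiquitin and SUMO ligase, went the other way, from 3.72 and 2.58 TPM to 14.1, 7.58 and 24.8 TPM in poly(A) RNA and from 36.5 and 34.8 TPM to 25.4, 22.5 and 29.2 TPM in total RNA. CCDC11, a protein of cilia, rose by 1.84 ± 0.32 in poly(A) RNA and fell by 0.44 ± 0.09 in total RNA, the former call lost in the fit of only the 2 stages. IFFO2 fell by 1.25 ± 0.40 and rose by 0.78 ± 0.16, and its poly(A) call was lost in that fit and without either stage 1 library. ZFP36, which binds AU-rich elements and brings deadenylases to mRNA, depended on 1 library: its poly(A) levels were 104 and 15.5 TPM at stage 1 and 19.8, 9.96 and 13.4 TPM at stage 2. Without replicate 1 of stage 1 its log2 change went from -2.05 to -0.07 (edgeR adjusted p = 1.00), and its call was also lost in the fit of only the 2 stages (edgeR adjusted p = 0.065).

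Calls in total RNA, on which these opposite and the following joint changes depend, moved with the library left out. Without replicate 1 or 2 of total RNA stage 1 the test called 0 and 2 genes higher and 12 and 6 lower, without replicate 3 of total RNA stage 2 it called 0 and 1, with replicate 2 of that stage left out 868 and 677, and with its replicate 1 left out 144 and 84. Genes that rose in both kinds of library were led in poly(A) change by ZNF34, KIAA1522, TMUB1, TBC1D10A and KDM5C. KIAA1522 went from 1.95 and 3.02 TPM to 13.2, 8.77 and 37.4 TPM in poly(A) RNA and from 7.14 and 6.98 TPM to 18.0, 11.9 and 15.9 TPM in total RNA. Its levels rose in both, by 2.95 ± 0.35 and by 1.07 ± 0.17 (edgeR adjusted p = 3.4e-08 and 0.023). TMUB1, TBC1D10A, a GTPase-activating protein of Rab GTPases, and KDM5C, a histone H3 lysine demethylase, rose by 2.27 to 2.54 in poly(A) RNA and by 0.40 to 0.48 in total RNA. In these genes and ZNF34 the poly(A) change was above the total RNA change, by 1.77 to 3.40 (edgeR adjusted p = 0.029 to 0.041). KIAA1522 did not pass that test (edgeR adjusted p = 0.094). SMAD3, a transducer of Nodal and activin signals, had nearly equal changes, of 0.85 ± 0.15 and 0.72 ± 0.14, and its poly(A) call was lost in the fit of only the 2 stages. It stood at 9.85 and 10.9 TPM and then at 18.2, 15.1 and 22.9 TPM in poly(A) RNA, and at 5.06 and 5.58 TPM and then at 9.79, 7.55 and 9.76 TPM in total RNA.

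The 46 genes that fell in both tables had median log2 changes of -3.34 in poly(A) RNA and -4.01 in total RNA. Of these, 16 are in the list of muscle markers used below, 7 in that of epidermis and matrix, 5 in that of liver and gut, and 1 in that of blood, lists chosen with earlier results of these data known. TNNI2, the inhibitory troponin of fast muscle, stood at 41.4 and 99.0 TPM at stage 1 and at 1.82, 6.13 and 3.07 TPM at stage 2 in poly(A) RNA. In total RNA it stood at 19.7 and 32.4 TPM and then at 1.06, 0.664 and 0.679 TPM. Both kinds of library had it lower in every stage 2 library, in poly(A) RNA a condition by which it was named. It fell by 4.21 ± 0.91 and by 5.00 ± 0.44 on the log2 scale (edgeR adjusted p = 0.00045 and 0.0023). The changes did not pass the test of their difference (edgeR adjusted p = 0.58). Its later poly(A) levels varied between libraries, at 5.91 ± 5.91 TPM at stage 3, 0.642 ± 0.229 TPM at stage 4 and 10.6 ± 13.5 TPM at stage 5 (SD, n = 3). The collagen COL2A1 of cartilage went from 4.29 and 10.3 TPM to 0.387, 0.682 and 0.598 TPM and, in total RNA, from 3.83 and 7.56 TPM to 0.171, 0.560 and 0.352 TPM. TTN, the giant protein of the sarcomere, fell by 2.76 ± 0.41 and by 3.84 ± 0.31. The 10 largest decreases in poly(A) RNA were POSTN, CPB1, PVALB, KRT73, TNNT3, MYH4, TNNC2, TNNI2, MYLPF and OCM2. POSTN had no call in total RNA (edgeR adjusted p = 0.13) and CPB1 was not tested there, whereas the other 8 also fell in it. The poly(A) calls of CPB1, PVALB and MYH4 were lost without replicate 2 of stage 1, the first also under the DESeq2 Wald test, and those of CPB1 and MYH4 without replicate 1 or replicate 3 of stage 2.

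The marker lists of later tissues were counted whole. Of 41 muscle markers tested 21 fell and 0 rose in poly(A) RNA, and of 26 tested in total RNA 16 fell and 0 rose. The fallers were 51.2% and 61.5% of those tested, against 11.1% and 0.543% of all genes. Their summed level was 547 and 1047 TPM at stage 1 and 128 to 182 TPM at stage 2 in poly(A) RNA, and 303 and 455 TPM and then 68.2 to 84.4 TPM in total RNA. ACTN2, MYL3, MYBPC1, MYOD1, TNNI1 and RYR1 were at 0 in all 3 stage 2 poly(A) libraries. They are 6 of 41 muscle markers, and 2334 of all 15631 genes were at 0 there, a near share. Of 34 liver and gut markers tested 18 fell, or 52.9%. The whole list summed to 428 and 709 TPM and then to 104 to 298 TPM. CELA1, AMY2A and INS were among the 5 of its 35 genes at 0 at stage 2, again near the share of all genes. The count of fallers was 2 without replicate 2 of stage 1, 6 with replicate 1 or 3 of stage 2 left out, and 23 when its replicate 2 was. Of 36 epidermis and matrix markers 16 fell (44.4%) and 2 rose, 9 to 10 falling without either stage 1 library or without replicate 3 of stage 2. Of 22 blood markers 5 fell (22.7%), or 2 without replicate 2 of stage 1, and 1 rose, KLF1, whose call was lost with either stage 1 library or replicate 3 of stage 2 left out, with summed levels of 170 and 190 TPM and then 140 to 233 TPM. Follicle cell markers, from the cells that surround the oocyte, gave 1 riser of 8 (12.5%), KITLG. Sperm markers gave 2 risers and 1 faller of 11 (18.2% and 9.09%), all 0 without replicate 2 of stage 1. Of all genes tested in poly(A) RNA 21.6% rose and 11.1% fell, so neither list exceeded these shares.

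Genes under 0.5 TPM in cleavage embryos but abundant near hatching also had signal at stage 1. A set of 184 genes had a mean of 50 TPM or more at stage 40 and under 0.5 TPM at every stage from 3 to 8. Their summed poly(A) level was 117 and 236 TPM at stage 1 and 20.2, 97.5 and 27.8 TPM at stage 2, at most 0.986% of their sum at stage 40. In total RNA it was 160 and 215 TPM and then 54.1, 120 and 83.7 TPM. In poly(A) RNA 61 of them fell, or 33.2%, and 0 rose, against 11.1% and 21.6% of all genes. The set was chosen for low levels at stages 3 to 8, which favours falls over rises. The comparison with all genes is therefore not a test. The part of RNA from later tissues in these falls was not tested, and bulk libraries cannot tell apart fewer cells of a type, were such cells attached, and less RNA per cell. Without these 184 genes the correlation of changes between tables was 0.22.

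Known targets of cytoplasmic polyadenylation, most of them described in Xenopus, gave 3 risers and 9 fallers of 38 tested in poly(A) RNA. In total RNA 1 of 37 rose, 2.70% against 1.44% of all genes tested. The poly(A) shares were 7.89% higher and 23.7% lower, against 21.6% and 11.1% of all genes tested. The fallers numbered 3 or 4 without either stage 1 library or without replicate 3 of stage 2, and 13 with DESeq2 size factors or with replicate 2 of stage 2 left out. The targets that fell were mitotic regulators at high levels. CCNB1, the cyclin of the mitotic kinase CDK1, stood at 2414 and 2372 TPM at stage 1 and at 1366, 1835 and 1173 TPM at stage 2 (log2 change -0.70 ± 0.17, edgeR adjusted p = 0.0019, a call lost in the fit of only the 2 stages). Its total RNA levels overlapped between stages, at 660 and 700 TPM and then at 583, 694 and 588 TPM. ESPL1, the separase that cuts cohesin at anaphase, went from 155 and 152 TPM to 59.9, 104 and 63.3 TPM in poly(A) RNA, and its poly(A) change was below its total RNA change by 1.24 ± 0.32 (edgeR adjusted p = 0.041).

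In Xenopus the mRNAs Eg1, Eg2 and Eg5, of CDK2, AURKA and KIF11, are polyadenylated in the egg and deadenylated after fertilization. In the axolotl libraries KIF11, a kinesin of the bipolar spindle, fell from 755 and 666 TPM to 380, 456 and 315 TPM in poly(A) RNA (log2 change -0.88 ± 0.20, edgeR adjusted p = 0.00090). Its total RNA stood at 541 and 525 TPM and then at 475, 553 and 512 TPM. AURKA, a kinase of the spindle poles, went from 658 and 653 TPM to 452, 537 and 358 TPM, and the kinase CDK2 from 461 and 515 TPM to 364, 409 and 274 TPM. All 3 were lower in each stage 2 library. In poly(A) RNA 6773 of the 11353 genes tested in both tables did not overlap between stages. The calls of AURKA and CDK2 were lost in the fit of only the 2 stages. They were also lost when either replicate 1 of stage 1 or replicate 3 of stage 2 was left out. That of CDK2 was lost without the other stage 1 library too. The test of the difference from total RNA gave KIF11 an edgeR adjusted p of 0.058, AURKA 0.24 and CDK2 0.083. PLK1, WEE2, TPX2 and CDC20 also fell, by 0.38 to 0.60 on the log2 scale, with calls lost in at least 4 alternatives each.

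The target that rose furthest was FBXO5, the Emi1 inhibitor of the anaphase-promoting complex. It stood at 7.92 and 5.46 TPM at stage 1 and at 18.3, 15.8 and 30.7 TPM at stage 2 in poly(A) RNA, a log2 change of 1.66 ± 0.21 (edgeR adjusted p = 1.9e-07). Its total RNA lay between 48.4 and 55.5 TPM in all 5 libraries, and the changes differed by 1.75 ± 0.32 (edgeR adjusted p = 0.026). DCP2, the enzyme that removes the mRNA cap, rose by 1.64 ± 0.23 with 87.3 to 97.0 TPM in total RNA, and CCNB3 rose by 0.76 ± 0.17, a call lost without replicate 2 of stage 1 and in the fit of only the 2 stages. Targets with no call included MOS, the kinase that holds the egg in meiosis, at 25.5 and 12.4 TPM and then at 17.3, 13.7 and 25.7 TPM. CCNA2 stood at 394 and 385 TPM and then at 391, 418 and 352 TPM, with a log2 change of 0.00 ± 0.12. CNOT6L, a deadenylase, had no call in poly(A) RNA (-0.02 ± 0.12) and rose in total RNA by 0.48 ± 0.08 (edgeR adjusted p = 0.023).

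Factors that lengthen, bind or shorten the tail moved both ways. Of 43 genes of the poly(A) tail and CPE machinery 7 rose and 8 fell, 16.3% and 18.6% against 21.6% and 11.1% of all genes, but with DESeq2 size factors 5 rose and 15 fell. Without replicate 1 of stage 1 the counts were 5 and 1, without its replicate 2 they were 4 and 5, and without replicate 3 of stage 2 they were 3 and 2. CPEB2, a CPE-binding protein, stood at 33.5 and 16.4 TPM and then at 12.1, 9.07 and 11.6 TPM in poly(A) RNA, and its call was lost without replicate 1 of stage 1. PAPD4, the cytoplasmic poly(A) polymerase GLD2, fell by 0.54 ± 0.14 and CNOT3, of the deadenylase complex CCR4-NOT, rose by 1.13 ± 0.17, both calls lost in the fit of only the 2 stages. Of 48 genes of maternal mRNA repression and decay 13 rose and 10 fell (27.1% and 20.8%), and 10 rose and 16 fell with DESeq2 size factors. The fallers numbered 4 to 6 with either stage 1 library or replicate 3 of stage 2 left out. FXR2, of the fragile X family of RNA-binding proteins, rose from 17.2 and 21.7 TPM to 53.9, 59.5 and 190 TPM in poly(A) RNA, with 127 to 152 TPM in total RNA (log2 change 2.33 ± 0.28, edgeR adjusted p = 3.6e-08). EIF4G1, the scaffold of cap-dependent initiation, fell from 32.0 and 34.0 TPM to 13.3, 21.1 and 14.3 TPM, with 11.6 to 15 TPM in total RNA.

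**Figure D3:**
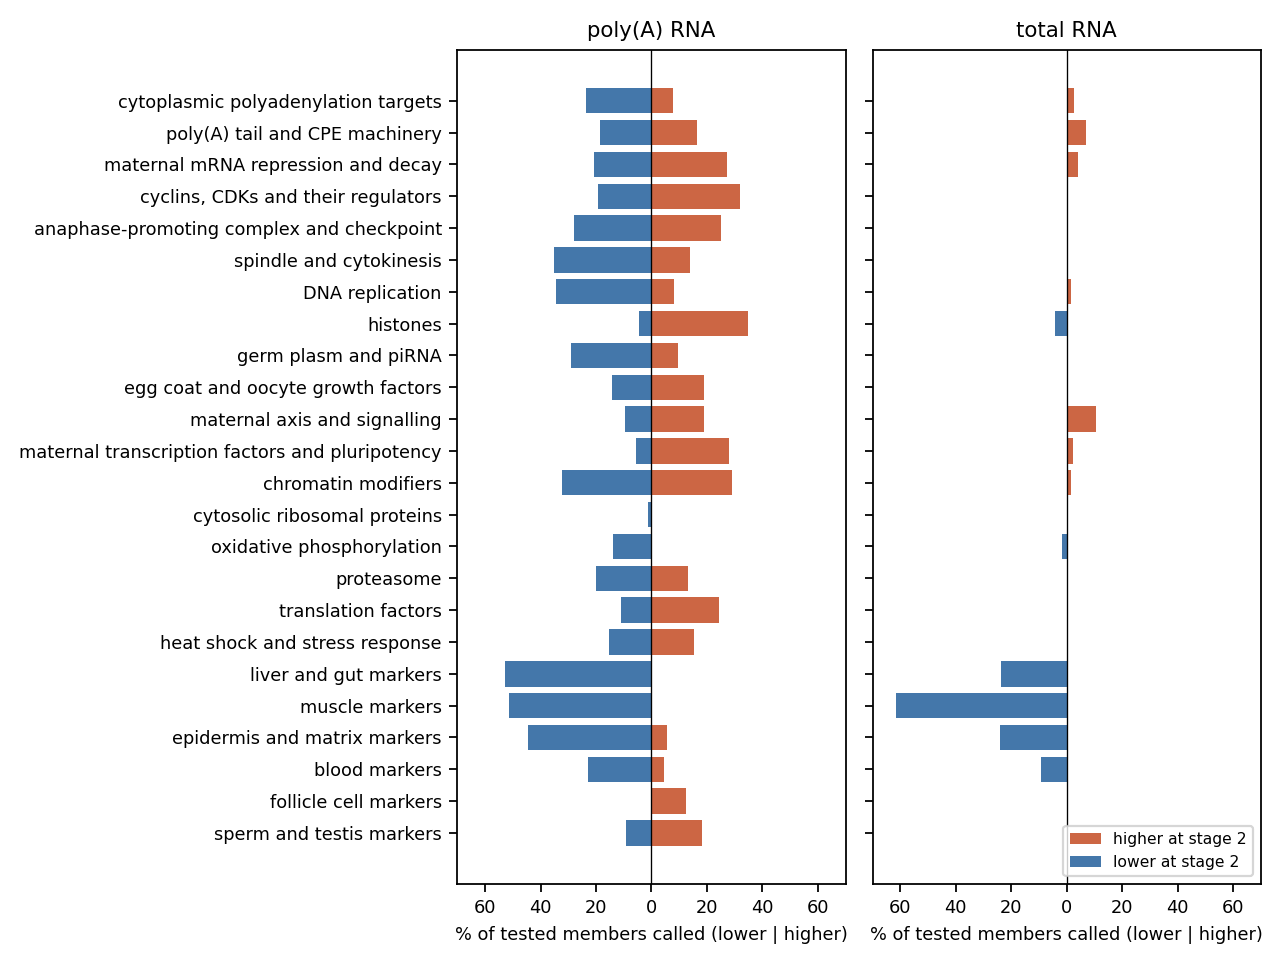
Share of the tested members of each gene list called lower (blue, left of 0) or higher (red, right of 0) at stage 2, in percent (x axis), in poly(A) RNA and in total RNA. Lists of maternal functions have calls mostly in poly(A) RNA, whereas muscle, liver and gut, and epidermis and matrix markers fell in both.

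Genes of the cell cycle engine had calls in both directions in poly(A) RNA, and 0 of 46 cyclins, CDKs and regulators, 0 of 36 genes of the anaphase-promoting complex and checkpoint and 0 of 51 spindle genes had a call in total RNA. Of 47 cyclins, CDKs and regulators tested in poly(A) RNA 15 rose and 9 fell, 31.9% and 19.1%, against 21.6% and 11.1% of all genes. In total RNA 1.44% of all genes tested rose and 0.543% fell. CCND2, a cyclin of the G1 phase, rose from 14.3 and 14.6 TPM to 23.5, 24.4 and 38.8 TPM, with 25.6 to 31.1 TPM in total RNA. CCNE1, the cyclin partner of CDK2, fell from 1156 and 1116 TPM to 720, 868 and 618 TPM, a call lost in the fit of only the 2 stages. Fallers in this list numbered 2 without replicate 1 of stage 1 or replicate 3 of stage 2 and 4 without the other stage 1 library, and risers 9 without replicate 2 of stage 1 or replicate 3 of stage 2.

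Of 36 genes of the anaphase-promoting complex and the checkpoint 9 rose and 10 fell, 25% and 27.8% against 21.6% and 11.1% of all genes. The subunit ANAPC7 rose from 9.09 and 15 TPM to 31.3, 26.4 and 47.9 TPM, and the activator FZR1 (Cdh1) from 26.4 and 31.1 TPM to 46.4, 47.0 and 74.3 TPM. SGOL2, a shugoshin that guards cohesin at the centromere, fell from 301 and 314 TPM to 152, 203 and 130 TPM, while its total RNA was 97.7 and 104 TPM and then 132, 127 and 133 TPM. Fallers were 3 or 4 without replicate 3 of stage 2 or replicate 1 of stage 1. In the spindle and cytokinesis list 7 of 51 rose and 18 fell, 13.7% and 35.3%, with 8 falling without replicate 1 of stage 1 and 4 rising without either stage 1 library. NUMA1, which anchors spindle poles, fell from 52.7 and 52.9 TPM to 33.7, 35.8 and 28.4 TPM, and CEP152, a centriole duplication protein, from 116 and 90.9 TPM to 53.9, 62.8 and 39.6 TPM. NUSAP1, a microtubule-binding protein, rose from 18.8 and 14.1 TPM to 32.1, 31.1 and 69.5 TPM.

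Of 61 DNA replication genes tested in poly(A) RNA 21 fell and 5 rose, 34.4% and 8.20% against 11.1% and 21.6% of all genes. These counts were 7 against 5 without replicate 1 of stage 1, 10 against 2 without replicate 2 of stage 1 and 7 against 1 without replicate 3 of stage 2. In total RNA 1 of 61 rose, 1.64% against 1.44% of all genes. MTBP, which helps fire replication origins, stood at 63.9 and 49.5 TPM at stage 1 and at 25.1, 25.8 and 16.8 TPM at stage 2 (log2 change -1.31 ± 0.22, edgeR adjusted p = 1.1e-05). Its total RNA lay between 37.1 and 42.1 TPM in all libraries, and the changes differed by 1.37 ± 0.31 (edgeR adjusted p = 0.033). WDHD1, which links helicase and polymerase at the fork, fell by 0.74 ± 0.17 and TIMELESS, of the fork protection complex, by 0.81 ± 0.20.

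Histone genes gave 8 risers and 1 faller of 23 tested in poly(A) RNA, 34.8% and 4.35% against 21.6% and 11.1% of all genes. In total RNA 0 of 24 rose and 1 fell, 4.17%, against 1.44% and 0.543% of all genes. In 6 of 22 the poly(A) log2 change was called above the total RNA change, against 6.5% of all genes tested. No gene of any kind kept such a call without replicate 1 or without replicate 3 of total RNA stage 2. The risers numbered 3 without replicate 1 of stage 1 or replicate 3 of stage 2. Replication-dependent histone mRNAs of animals mostly end in a stem-loop in place of a tail, and in Xenopus oocytes such mRNAs carry short tails. HIST1H2AH stood at 19.3 and 29.5 TPM and then at 83.7, 75.2 and 318 TPM in poly(A) RNA, against 2634 and 2239 TPM and then 2445, 1961 and 1949 TPM in total RNA. HIST1H2BK stood at 71.0 and 86.9 TPM and then at 167, 148 and 408 TPM in poly(A) RNA, and in total RNA at 6343 and 5710 TPM and then at 5423, 4577 and 4476 TPM. The log2 rises were 2.65 ± 0.46 and 1.58 ± 0.35. Reads of near-identical histone genes can be shared between copies, so values of single members are uncertain. H2AFY2, the macroH2A2 variant, rose from 43.2 and 48.2 TPM to 119, 106 and 209 TPM, with 73.8 to 90.0 TPM in total RNA.

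Among germ plasm and piRNA genes 3 of 31 rose and 9 fell in poly(A) RNA, 9.68% and 29% against 21.6% and 11.1% of all genes. Fewer fell without replicate 1 of stage 1. TDRD6, a Tudor protein of germ granules, went from 25.9 and 25.2 TPM to 6.96, 11.2 and 10.1 TPM in poly(A) RNA and lay between 27.5 and 32.2 TPM in total RNA. Its poly(A) change was -1.44 ± 0.35 (edgeR adjusted p = 0.0014) and differed from its total RNA change by -1.58 ± 0.26 (edgeR adjusted p = 0.026). PIWIL1, a Piwi protein, fell from 161 and 167 TPM to 82.6, 111 and 84.7 TPM. All 3 risers lost their call in an alternative, 2 of them with DESeq2 size factors or library size alone. Of 21 egg coat genes and oocyte growth factors 4 rose and 3 fell (19.0% and 14.3%, near the shares of all genes), and fewer of either without replicate 1 of stage 1. With replicate 3 of stage 2 left out these counts were 2 and 2, and with its replicate 2 left out 4 and 6. BMP15, a growth factor that oocytes secrete, rose from 1.79 and 1.00 TPM to 9.22, 5.38 and 28.0 TPM in poly(A) RNA, with 30.1 to 43.0 TPM in total RNA (log2 change 3.27 ± 0.61, edgeR adjusted p = 7.2e-05). GDF9, its close relative, rose from 30.0 and 34.5 TPM to 81.4, 71.4 and 107 TPM, a call lost without replicate 1 of stage 1.

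Of 63 maternal axis and signalling genes 12 rose and 6 fell in poly(A) RNA, 19.0% and 9.52% against 21.6% and 11.1% of all genes, and 5 of 47 rose in total RNA, 10.6% against 1.44%. Without replicate 3 of stage 2 the counts in poly(A) RNA were 6 and 0, and 2 or 3 fell without either stage 1 library. LRP5, a coreceptor of Wnt ligands, stood at 15.1 and 12.9 TPM and then at 60.7, 35.3 and 85.0 TPM in poly(A) RNA, with 143 to 175 TPM in total RNA (log2 change 2.09 ± 0.21, edgeR adjusted p = 2.4e-09). The BMP receptor BMPR1A went from 56.7 and 55.5 TPM to 113, 86.4 and 135 TPM. NOTCH2, a receptor, fell by 0.43 ± 0.15 in poly(A) RNA, a call lost without either stage 1 library, without replicate 3 of stage 2 and in the fit of only the 2 stages, and rose by 0.39 ± 0.07 in total RNA.

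Maternal transcription factors rose in 15 of 54 cases and fell in 3, 27.8% and 5.56% against 21.6% and 11.1% of all genes. The fallers were 7 with either other scaling and 6 without replicate 2 of stage 2. OTX1, a homeobox factor, went from 2.08 and 2.67 TPM to 12.7, 9.52 and 46.3 TPM in poly(A) RNA and stood at 5.80 and 7.02 TPM and then at 12.7, 6.42 and 8.97 TPM in total RNA. ELK1, an ETS factor, rose by 1.96 ± 0.25 and STAT3, a factor activated by cytokine receptors, by 1.41 ± 0.18, with log2 changes of 0.21 ± 0.09 and 0.04 ± 0.09 in total RNA. Genes named ZNF, a group chosen after its values were seen, rose in 164 of 355 cases (46.2%) in poly(A) RNA and fell in 2. In total RNA 3 of 337 rose, 0.89% against 1.44% of all genes.

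Chromatin modifiers moved in both directions, 18 up and 20 down of 62, and in total RNA 1 of 61 rose, 1.64% against 1.44% of all genes. The poly(A) shares were 29% and 32.3%, against 21.6% and 11.1% of all genes. CTCF, the insulator protein, rose from 33.4 and 26.0 TPM to 74.9, 60.0 and 109 TPM, while its total RNA lay between 120 and 142 TPM. EHMT2 and KDM4A, a methyltransferase and a demethylase of histone H3, rose by 1.29 ± 0.17 and by 1.52 ± 0.20. DNMT1, the maintenance DNA methyltransferase, fell from 441 and 399 TPM to 181, 278 and 155 TPM in poly(A) RNA, and its total RNA lay between 212 and 246 TPM in all 5 libraries. INO80, a remodelling ATPase, fell by 0.59 ± 0.14. The fallers in this list numbered 9 without replicate 1 of stage 1 or replicate 3 of stage 2 and 13 without the other stage 1 library, and the risers 16 to 18 whichever library was left out.

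Among housekeeping complexes, of 74 cytosolic ribosomal proteins 0 rose and 1 fell, RPS3A, against 21.6% and 11.1% of all genes, and 10 fell with library size alone and 22 without replicate 2 of stage 2. The call of RPS3A was lost in the fit of only the 2 stages, with either stage 1 library left out and with replicate 1 or 3 of stage 2 left out. Of 65 genes of oxidative phosphorylation 0 rose and 9 fell (13.8%), or 4 to 5 with either stage 1 library or replicate 3 of stage 2 left out. ATP5A1, the alpha subunit of the ATP synthase, went from 354 and 353 TPM to 148, 252 and 184 TPM in poly(A) RNA and stood at 85.4 and 74.5 TPM and then at 72.8, 102 and 80.4 TPM in total RNA. Of 45 proteasome genes 6 rose and 9 fell (13.3% and 20.0%), both counts being 2 or 3 without replicate 1 of stage 1 or replicate 3 of stage 2, and PSME4, a proteasome activator, fell by 0.89 ± 0.24. Translation factors turned with the scaling, 11 up and 5 down of 45 (24.4% and 11.1%) in the test above and 9 up and 12 down with DESeq2 size factors. Without replicate 3 of stage 2 they gave 5 and 1, and without its replicate 2 they gave 12 and 12. Of 39 genes of the stress response 6 rose and 6 fell (15.4% each), and 2 or 3 fell when replicate 1 of either stage or replicate 3 of stage 2 was left out.

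Calls in poly(A) RNA were more frequent in long genes. With the genes tested ranked by effective length and divided into 5 groups of equal size, 9.59% of the 2888 shortest rose and 8.14% fell, against 31.7% and 13.7% of the 2888 longest. The median log2 change in poly(A) RNA was 0 in the shortest and 0.14 in the longest. The median total RNA change went from -0.16 in the shortest to 0.08 in the longest, and the part of length in the poly(A) calls was not tested further.

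The genes called between stages 1 and 2 were followed into the 18 poly(A) libraries of stages 3 to 8, which that contrast does not use apart from the shared estimate of spread. Of the 3115 risers 2884, or 92.6%, were above both stage 1 libraries in all 18, against 25.5% of all genes tested, a count that shares its stage 1 libraries with the call. Between stages 3 and 8, 3177 genes rose, 22% of those tested, and 2397 fell, 16.6%. Of the risers 1919, or 61.6%, rose again in that later contrast and 41 fell. Of the 1609 fallers 1017, or 63.2%, were below both stage 1 libraries in all 18, against 14.0% of all genes tested, and in the later contrast 550 fell and 70 rose. The later calls turned with the scaling, to 2685 higher and 3071 lower with DESeq2 size factors and to 4481 and 776 with library size alone, which moved the median of all genes by 0.29.

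The median level of the risers stood at 14.7 to 19.5 TPM at stage 3 and at 36.4 to 36.6 TPM at stage 8. KRI1 reached 117 ± 11.7 TPM at stage 8 (SD, n = 3) and rose by 1.45 ± 0.25 between stages 3 and 8 (edgeR adjusted p = 2.1e-05). STX3 stood at 85.6 ± 1.88 TPM at stage 8 (SD, n = 3), with a log2 change of -0.04 ± 0.17 after stage 3. Among the fallers KIF11 fell again, by 1.39 ± 0.19 (edgeR adjusted p = 8.6e-07), whereas MAP4K4 rose by 1.52 ± 0.47 (edgeR adjusted p = 0.0094), to 44.7 ± 9.34 TPM at stage 8 (SD, n = 3).

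**Figure D4:**
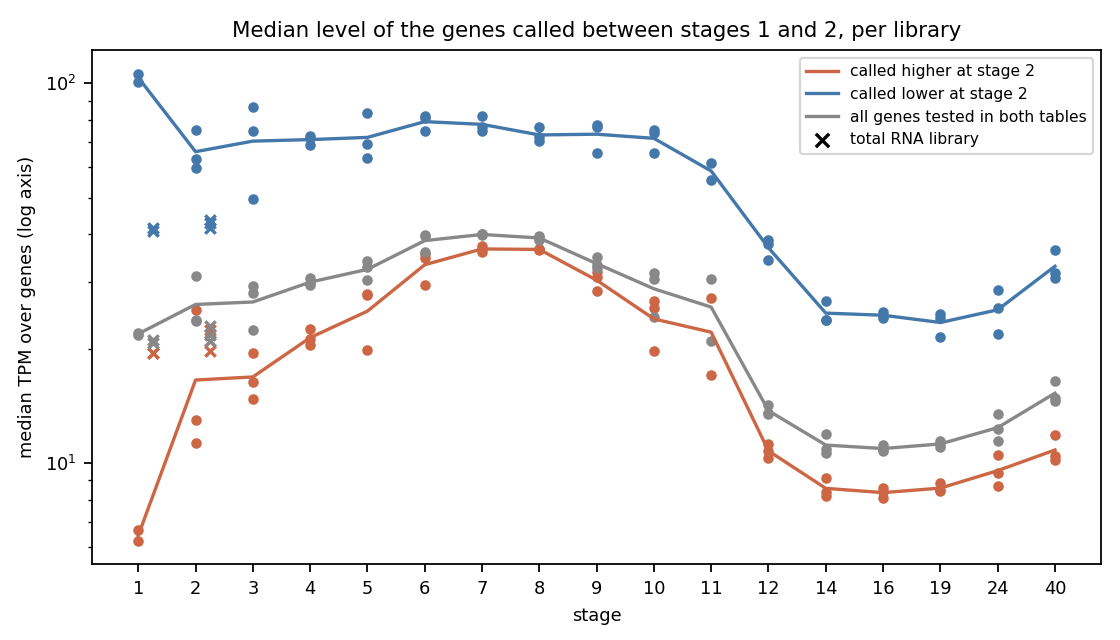
Median TPM (log axis) over the genes called higher (red) or lower (blue) at stage 2 and over all genes tested in both tables (grey), in each poly(A) library (points, with the mean per stage as a line) and in each total RNA library (crosses), by stage on an x axis with unequal steps of time. The risers climb from 6.23 and 6.65 TPM at stage 1 to a plateau at stages 6 to 8, while their total RNA medians at stages 1 and 2 lie between 19.4 and 22.4 TPM.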

How the data were processed

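Poly(A) libraries of single embryos were read as paired 101-base reads and total RNA libraries, depleted of ribosomal RNA, as single 65-base reads, per the labels' protocols. The submitters' processing notes name Bowtie 0.12.1 and RSEM 1.1.6. What reference the reads were aligned to was not found in the labels or headers. Per gene, the deposited tables give the authors' expected counts (estimated counts, not normalized between libraries) and the authors' TPM, for 15631 genes named by human symbols, 11354 of them symbols in the axolotl RefSeq table. The TPM tables of the 2 library kinds were scaled apart. Columns of samples outside the labels numbered 0. Chi-square over its degrees of freedom was at least 5.70 for each pair of libraries within a group, so none was taken for a duplicate deposit. Each library is 1 embryo, as far as the labels say.

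After rounding, the expected counts went into edgeR 4.0.16 (R 4.3.3) (filterByExpr by stage, TMM, quasi-likelihood F test, Benjamini-Hochberg over all genes tested). The test of the difference fitted stage, library kind and their interaction to 10 libraries. The SE is the log2 change over the square root of F. Summaries used Python 3.11.15 and pandas 2.3.3. A fold against a group at 0 used a floor of 3 counts over the group. Precision is limited by 2 and 3 libraries per group. Tested on simulated data, with 2-fold and 4-fold changes given to 100 genes each, the poly(A) test recovered 72 and 96, with 12 false calls over 14360 genes. The total RNA test recovered 82 of 100 and 93 of 99, with 17 false calls over 11282 genes, and the test of the difference 44 and 85 of 100 each, with 7 over 10952. The simulation drew each library independently around its stage mean and changed only genes above a floor of counts. It held no shift shared by many genes of a library, so these figures need not hold for the real libraries.

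The members, the 24 gene lists and the tests were chosen with earlier results of these data known. Named genes are the 10 largest increases and decreases of called genes that have a symbol, reach a mean of 10 TPM in either stage and do not overlap between libraries; the 5 smallest p of the difference each way among called genes with a mean of 50 or more total RNA counts; up to 5 by poly(A) change among those called the same way in both tables (each direction) or opposite ways; up to 3 members per list and direction by adjusted p; and all tested cytoplasmic polyadenylation targets. These came to 181 genes, of which part is described. Alternatives were DESeq2 1.42.0 (size factors, Wald test), library size alone, no filter, only the 2 stages, the replicate block, separate fits, limma 3.58.1 (voom, added after seeing the data), other class rules and each library left out. A further set held genes under 0.5 TPM at stages 3 to 8 and at 50 TPM or more at stage 40.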

Additional observations from a re-analysis of the deposited data

Results flagged for a closer look

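With all libraries in, the change between stages 1 and 2 differed between poly(A) RNA and total RNA in part of the genes by the interaction test of edgeR. With its sign, the poly(A) log2 change was above the total RNA change in 714 of 10988 genes, 6.5%, and below it in 476, 4.33%. Both counts were 0 without replicate 1 or 2 of total RNA stage 1, replicate 1 or 3 of total RNA stage 2, or replicate 1 of poly(A) stage 1.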

How the results depend on the processing

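Without each library in turn the poly(A) test called 2032 to 3470 genes higher and 603 to 2003 lower, and total RNA 0 to 868 and 1 to 677. The difference gave 0 to 1961 and 0 to 1198, lowest with any of 4 total RNA libraries or replicate 1 of poly(A) stage 1 left out. Risers called the same way in total RNA numbered 0 to 282, without a call there 1975 to 3361, and the opposite way 0 to 67, and fallers 1 to 197, 492 to 1751 and 0 to 147. With only the 2 stages fitted 749 and 360 genes were called. By the DESeq2 Wald test 2499 fell in poly(A) RNA, 528 rose and 164 fell in total RNA, and the difference gave 1399 and 1031. It placed 134 risers in the same and 25 in the opposite class, and left 2138 fallers without a call and 153 opposite. DESeq2 size factors gave 27 risers the same way, 1 opposite and 2075 fallers without a call. Library size alone gave 426 risers in total RNA, 432 and 866 for the difference, 776 fallers between stages 3 and 8, 101 risers the same way, 0 opposite and 87 fallers opposite. Separate fits gave 2728 and 1275 differences, and limma-voom 431 higher. Without the late-stage genes 2 risers were opposite. With a total RNA change under 0.5 in place of no call, 148 risers and 106 fallers went the same way and 56 risers the opposite. The causes were not tested. For named genes under single alternatives 1778 results stayed on their side of the threshold, 189 lost their call, 21 gained one and 0 turned direction.

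With the replicate number as a block 3105 genes rose and 1661 fell in poly(A) RNA. The deviations of replicate 1 of stage 1 and of stage 2 from their group means had a correlation of 0.0239 across genes, and replicate 2 of stage 1 mirrors its replicate 1. No paired analysis was possible for total RNA and for the difference because its libraries could not be tied to numbered samples.

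Tail length and RNA per embryo were not measured, and with 2 libraries at stage 1 a call depends on both.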
